A study of Mus musculus with 6 samples.

Results

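The expression of Siglecs and paired inhibitory myeloid receptors was compared between CD36+ NK cells and CD36- NK cells of the fibrotic mouse liver. The 10 genes were taken by symbol from the 57180 genes of the deposited RNA-seq table. They comprised the Siglecs Siglec1, Siglece, Siglecf, Siglecg and Cd33, the leukocyte immunoglobulin-like receptor (LILR) relatives Pirb, Lilrb4a and Lilra5, and the receptor Sirpa with its ligand Cd47. All 10 had enough counts to be tested, with 115 counts over the 6 libraries for Siglecf and 25500 for Sirpa at the extremes.

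Both groups were sorted by flow cytometry, in a study that gated NK cells as CD3- NK1.1+, from the livers of male C57BL/6J mice aged 6 to 8 weeks. Fibrosis had been induced in all of them by injecting 20% CCl4 in olive oil at 2.5 ml/kg, 2 times a week for 4 weeks, with livers taken 48 h after the last dose. CD36 is a scavenger receptor that takes up fatty acids, and its surface level was the only labelled difference between the groups. Each group had 3 libraries. The sources did not say whether these came from separate mice, so the p-values measure only the spread between libraries, and no oil-treated mice were sequenced here. The libraries held 10292480 to 13787189 counts in genes. Library names wrote the CD36 sign differently from the titles. The titles were followed, and the Cd36 transcript itself separated the titles without overlap, at 109.7, 262.6 and 237.7 against 14.3, 31.74 and 17.09 CPM. CPM are counts relative to the TMM-normalized size of the library.

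The markers of the labelled cell type were present in both groups but unequal. All 10 NK lineage genes, led by Gzma, Il2rb and Nkg7, were significantly lower in CD36+ NK, with a summed CPM of 1071 to 1294 against 5622 to 7325. Of 13 macrophage and Kupffer cell genes, 11 were tested and all had a positive log2 fold change, 5 of them passing the thresholds, and their sum ran from 2800 to 6879 CPM in CD36+ NK but only from 465.9 to 1698 CPM in the other group. The most abundant were Csf1r, C1qb and C1qa, whereas the Kupffer cell marker Clec4f was at 0 in 4 libraries and reached 45.91 CPM in CD36+ NK replicate 2. B cell genes, Cd79a and Ms4a1 among them, summed to 4599 to 5170 CPM against 3140 to 3600. CD36+ NK replicate 1 stood apart by its T cell genes, at 338.0 CPM against 27.44 to 47.72 in the other libraries. Neutrophil genes, led by Ngp, varied within both groups, with sums of 5246, 764.9 and 1054 CPM in CD36+ NK and of 4556, 2552 and 1882 CPM in CD36- NK. Of 8 monocyte genes, 2 were called higher and 1 lower, with sums of 1607 to 1688 CPM against 1025 to 1787. The log2 fold change was negative for 6 of these 8, with a median of -0.85 and a range of -1.35 to 2.84. Erythroid genes, led by Hbb-bs, summed to 269.0 to 612.9 CPM against 61.72 to 142.0, and 3 of 8 were called higher. Conventional dendritic cell genes, led by Itgax, summed to 466.0 to 528.5 CPM against 614.8 to 817.4, with 2 of 8 called higher and 1 lower. All 4 mast cell and basophil genes had a negative log2 fold change, with a median of -1.43 and none called. The part of these markers in the results was not tested, and in such bulk samples fewer cells of a type and less RNA per cell cannot be told apart.

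Siglecs are immunoglobulin-like receptors that bind sialic acid on glycans. Most of them carry immunoreceptor tyrosine-based inhibitory motifs in the cytoplasmic tail, which recruit the phosphatases SHP-1 and SHP-2 and restrain activation. LILR relatives come as inhibitory members with such tails and activating members that signal through ITAM-bearing adaptors, a layout called paired receptors. SIRPα on myeloid cells binds CD47, which nearly all cells display, and this contact restrains phagocytosis. In the liver these receptors are best known from macrophages, monocytes, granulocytes and B cells, while mouse NK cells rely mainly on Ly49 and NKG2 receptors for inhibition.

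As the deposited table gives them, with no build named, 6 of the 10 genes lay on chromosome 7. Siglecf, Siglecg, Cd33 and Siglece stood within 309 kb (chr7:43000765-43309585), and Pirb and Lilra5 within 532 kb (chr7:3714408-4246462). Sirpa (chr2:129434755-129474148) and Siglec1 (chr2:130911140-130928685) shared chromosome 2, Lilrb4a was at chr10:51367052-51372707 and Cd47 at chr16:49620896-49735373. These spans cover the whole gene, with exons, introns and untranslated parts together.

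Promoter sequences from RefSeq on GRCm38.p6, from 250 bases before to 50 bases after the start, were found for 7 of the 10 genes, and Siglec1, Sirpa and Lilrb4a had no entry. Coordinates of this build are not those of the table. The sequences below are shown 5′ to 3′ on the gene's own strand because Siglece and Lilra5 are receptors that were called higher in CD36+ NK, Pirb is an inhibitory neighbour of Lilra5 that was not called, and Cd47 is the ligand that did not follow the receptors. Capitals mark GAGGAA or its reverse complement, the core bound by PU.1, a transcription factor of myeloid and B cells.
Siglece (chr7:43660112-43660411, minus strand): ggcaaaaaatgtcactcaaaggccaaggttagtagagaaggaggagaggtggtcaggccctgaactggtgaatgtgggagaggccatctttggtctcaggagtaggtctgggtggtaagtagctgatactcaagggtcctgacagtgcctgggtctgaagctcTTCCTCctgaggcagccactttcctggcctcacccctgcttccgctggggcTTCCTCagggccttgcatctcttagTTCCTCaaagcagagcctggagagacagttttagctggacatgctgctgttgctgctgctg
Lilra5 (chr7:4237504-4237803, plus strand): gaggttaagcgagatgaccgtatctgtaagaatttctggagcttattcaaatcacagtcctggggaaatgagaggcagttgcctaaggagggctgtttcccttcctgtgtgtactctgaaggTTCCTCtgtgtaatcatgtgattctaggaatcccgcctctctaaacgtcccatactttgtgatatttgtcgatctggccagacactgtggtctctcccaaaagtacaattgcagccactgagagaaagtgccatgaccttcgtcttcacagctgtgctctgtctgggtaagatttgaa
Pirb (chr7:3720333-3720632, minus strand): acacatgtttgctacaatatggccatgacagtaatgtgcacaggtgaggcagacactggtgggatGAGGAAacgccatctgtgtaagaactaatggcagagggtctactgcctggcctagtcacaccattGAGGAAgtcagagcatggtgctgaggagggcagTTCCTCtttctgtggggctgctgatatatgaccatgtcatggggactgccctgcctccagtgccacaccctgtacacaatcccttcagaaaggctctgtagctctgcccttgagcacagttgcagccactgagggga
Cd47 (chr16:49855404-49855703, plus strand): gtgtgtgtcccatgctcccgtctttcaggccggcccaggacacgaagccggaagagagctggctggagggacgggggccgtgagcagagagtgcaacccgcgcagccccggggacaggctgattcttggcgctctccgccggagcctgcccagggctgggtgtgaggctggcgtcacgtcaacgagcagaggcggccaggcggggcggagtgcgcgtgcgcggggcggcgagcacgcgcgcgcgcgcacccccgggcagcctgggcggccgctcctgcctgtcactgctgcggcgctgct

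On either strand, the PU.1 core occurred 3 times in the Siglece promoter, 3 times in Pirb, and 1 time each in Lilra5, Cd33 and Siglecf. Siglecg held 2 matches at one of its starts and 0 at the other, and neither Cd47 start held any. Among all 32851 RefSeq promoters of this length, 28.3% held at least 1 match. The C/EBP motif TTGCNNAA, which was in 10.8% of all promoters, occurred 1 time in Lilra5 and in no other member. The AP-1 motif TGANTCA was in none of the 7 genes and in 7.81% of all promoters. The same held for the TATA box, spelled TATAAA, which was in 13.6% of all promoters, and for the interferon response element, in 3.44%. Every motif was searched on both strands. These matches describe the letters only, and Pirb, with as many as Siglece, was not called.

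Among the 10 genes, 3 were significantly higher in CD36+ NK by edgeR's quasi-likelihood test (adjusted p below 0.05 and fold change above 2): the activating receptor gene Lilra5, the phagocytosis checkpoint gene Sirpa and the inhibitory Siglec gene Siglece. None was significantly lower. Of all 14761 genes tested, 5.96% were called in either direction and 2.98% were called higher. The log2 fold change was positive for 9 of the 10 genes, with a median of 0.65 against 0.01 over all tested genes. In 6 of the 10 the CPM of the groups did not overlap, always with CD36+ NK above, compared with 17.0% of all tested genes not overlapping in that direction and 32.8% in either. On the adjusted p alone 4 members passed, adding Siglecg, where 10.5% of all genes did (5.07% higher and 5.44% lower). With CD36+ NK replicate 1 left out, the library with the T cell transcripts, the same 3 genes were called. Leaving out any of replicate 2 of CD36+ NK, replicate 1 of CD36- NK or replicate 3 of CD36- NK left 1 called, Sirpa. Leaving out replicate 3 of CD36+ NK left 2, and leaving out replicate 2 of CD36- NK gave 4. The library names had 2 forms, whose meaning was not given, 1 form holding replicate 1 of each group and the other the remaining 4 libraries. The log2 differences within these forms were 3.62 and 3.52 for Lilra5, 2.74 and 2.46 for Sirpa and 1.98 and 2.75 for Siglece.

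**Figure D1:**
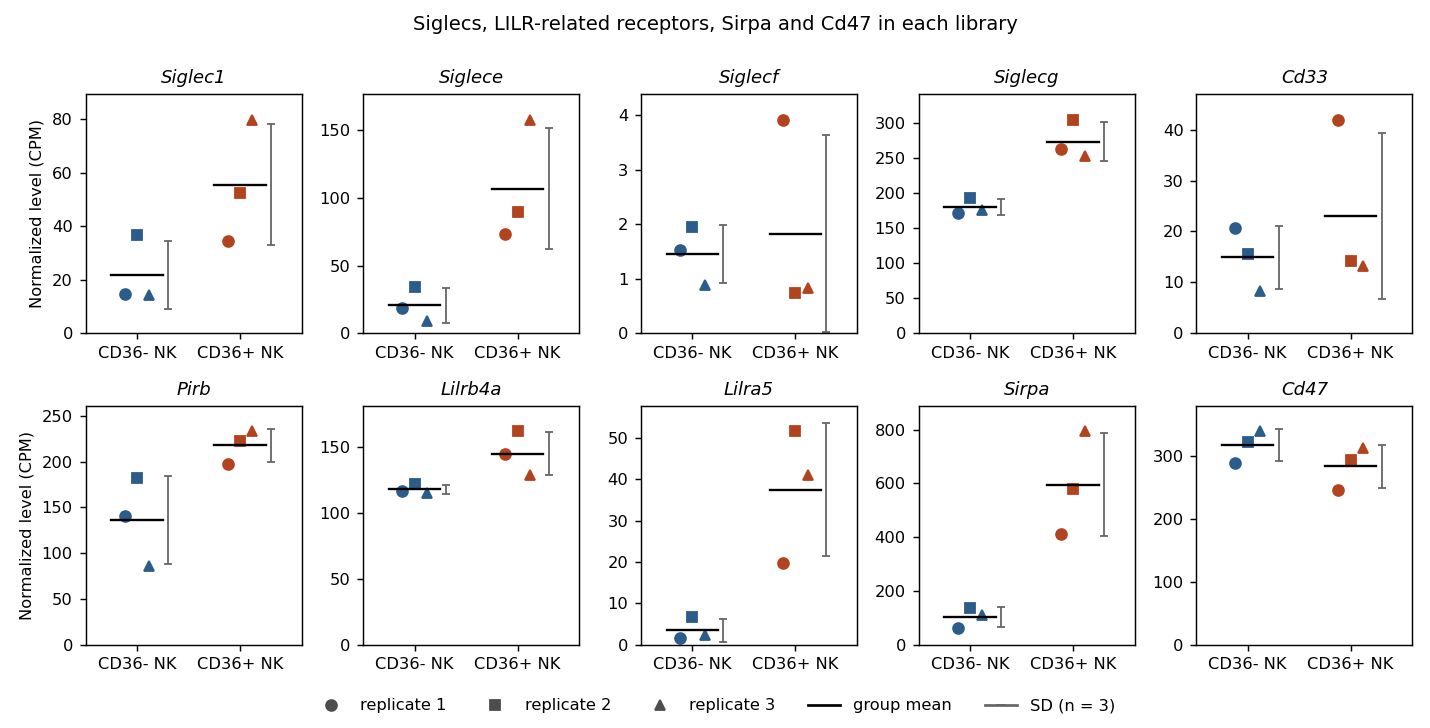
Normalized level (CPM, vertical axis from 0, scaled for each gene) of the 10 genes in each of the 3 CD36- NK and 3 CD36+ NK libraries. Symbols mark the replicate, the black line is the group mean and the grey bar the SD. Lilra5, Sirpa and Siglece show wide gaps between the groups, Siglecf and Cd33 each have 1 high CD36+ NK library, and Cd47 overlaps.

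**Figure D2:**
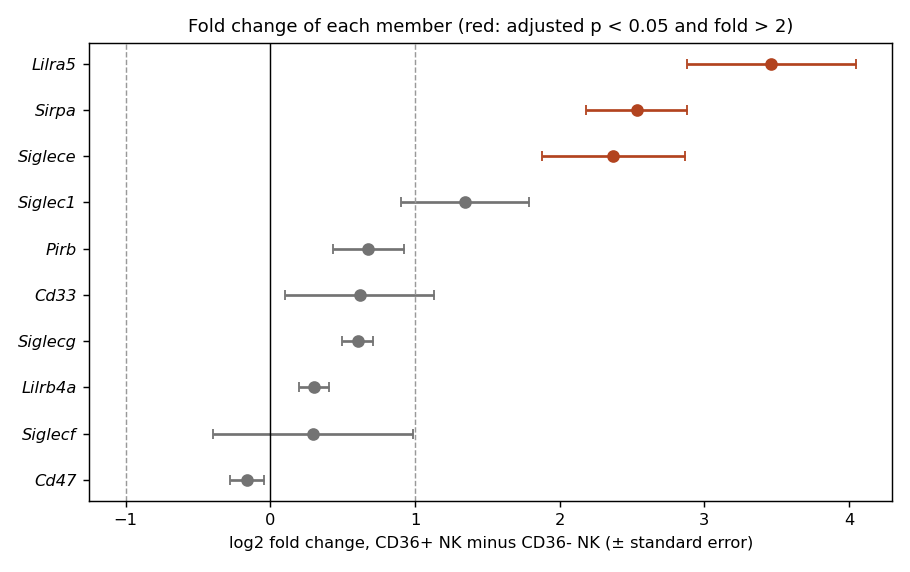
Log2 fold change of CD36+ NK over CD36- NK (horizontal axis) with its standard error for each gene, with dashed lines at a fold change of 2 in either direction. The 3 genes in red, Lilra5 at 3.46, Sirpa at 2.53 and Siglece at 2.37, passed both thresholds.

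Siglece encodes Siglec-E, an inhibitory Siglec of mouse neutrophils, monocytes and macrophages. Its level was 73.16, 89.84 and 157.8 CPM in CD36+ NK and 18.45, 34.39 and 8.985 CPM in CD36- NK. Every CD36+ NK library was above every CD36- NK library, with CD36+ NK replicate 3 the highest. This gave a log2 fold change of 2.37 (SE 0.49, adjusted p = 0.0277, edgeR quasi-likelihood test). The call was lost when any 1 of 4 libraries was left out, namely CD36+ NK replicate 2 (2.48, adjusted p = 0.0728), CD36+ NK replicate 3 (1.98, adjusted p = 0.0859), CD36- NK replicate 1 (2.28, adjusted p = 0.106) or CD36- NK replicate 3 (2.01, adjusted p = 0.0598).

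Siglec1 encodes sialoadhesin, a Siglec without an inhibitory motif that marks tissue macrophages. It stood at 34.62, 52.24 and 79.65 CPM in CD36+ NK and at 14.68, 36.52 and 14.26 CPM in CD36- NK. The groups overlapped through CD36- NK replicate 2, which exceeded CD36+ NK replicate 1. The log2 fold change of 1.35 (SE 0.44) missed the threshold at an adjusted p of 0.102. Without CD36- NK replicate 2, the library of its group with the most macrophage transcripts, the log2 fold change was 1.93 and passed (adjusted p = 0.0199).

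Siglecg encodes Siglec-G, an inhibitory receptor known mainly from B cells. It was measured at 263.3, 305.0 and 252.8 CPM in CD36+ NK and at 171.7, 193.1 and 175.8 CPM in CD36- NK. The groups were tight and did not overlap. The log2 fold change of 0.60 (SE 0.11) reached an adjusted p of 0.0166 but was a 1.52-fold difference, under the fold threshold. With 1 library left out, its adjusted p ranged from 0.0233 to 0.0693. All 8 B cell genes likewise had a positive log2 fold change, with a median of 0.51, none of them called and 7 not overlapping. On the adjusted p alone, 5 of these 8 passed. What part B cell transcripts had in the Siglecg value was not tested.

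Siglecf, the eosinophil and alveolar macrophage Siglec, was near the limit of detection, with 9 to 44 counts per library. CD36+ NK held 3.916, 0.7358 and 0.8314 CPM and CD36- NK held 1.537, 1.945 and 0.879 CPM. CD36+ NK replicate 1 was the highest library, and the others overlapped. The log2 fold change was 0.30 (SE 0.69, adjusted p = 0.836) and turned to -0.91 without that library. The 7 eosinophil genes did not share 1 pattern. Their sum was 237.7, 322.7 and 425.9 CPM in CD36+ NK, lowest in replicate 1, and 43.46 to 105.7 CPM in CD36- NK. Ear2, the most abundant, was at 104.0, 186.3 and 182.0 CPM in CD36+ NK, while the granule genes Epx and Prg2, named here because of their values, were highest in replicate 1, at 3.738 and 19.4 CPM.

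Cd33 encodes a myeloid Siglec. Its level was 41.92, 14.13 and 13.22 CPM in CD36+ NK and 20.76, 15.65 and 8.399 CPM in CD36- NK. Again CD36+ NK replicate 1 lay above the rest and the groups overlapped. Its log2 fold change was 0.62 (SE 0.51, adjusted p = 0.513) and turned to -0.15 without that library, the one with the highest neutrophil sum. Whether neutrophil or T cell transcripts had a part in its value was not tested.

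Of the LILR relatives, Lilra5 had the largest log2 fold change among the 10 genes. It encodes an activating receptor of myeloid cells. It was at 19.85, 51.65 and 40.99 CPM in CD36+ NK, whereas CD36- NK held 1.461, 6.543 and 2.246 CPM, the latter from 19, 74 and 23 counts. The groups were far apart, with a log2 fold change of 3.46 (SE 0.59, adjusted p = 0.0144). The log2 fold change stayed at or above 3.06 with any 1 library left out. The call was lost without CD36+ NK replicate 2 (3.16, adjusted p = 0.0538), without CD36- NK replicate 1 (3.06, adjusted p = 0.0506) and without CD36- NK replicate 3 (3.23, adjusted p = 0.0632).

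Pirb encodes PIR-B, the inhibitory member of the paired PIR receptors, which binds MHC class I. CD36+ NK showed 198.1, 222.6 and 233.6 CPM and CD36- NK showed 140.8, 182.0 and 86.14 CPM. The groups did not overlap, although CD36- NK replicate 2 came close. The log2 fold change of 0.68 (SE 0.25) did not pass, at an adjusted p of 0.134. Pirb and the activating PIR-A genes are near-identical copies, so fragments could have been split between them and the value is uncertain.

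Lilrb4a encodes an inhibitory receptor of myeloid and mast cells. CD36+ NK was at 144.2, 161.9 and 128.6 CPM and CD36- NK at 116.5, 121.5 and 115.2 CPM. The groups did not overlap but lay close together, with a log2 fold change of 0.30 (SE 0.10, adjusted p = 0.119). This value is uncertain too, because Lilrb4a overlaps the predicted gene Gm49339 on the same strand and has a similar copy, Lilr4b. Gm49339 held 1732 counts in all and a log2 fold change of 0.25 (adjusted p = 0.332).

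Sirpa, which encodes the CD47 receptor of macrophages, monocytes and dendritic cells, had the lowest p-value of the 10 genes. It was measured at 410.9, 577.9 and 794.1 CPM in CD36+ NK and at 61.5, 137.2 and 109.8 CPM in CD36- NK. The groups did not overlap, and the difference was 5.78-fold (log2 2.53, SE 0.35, adjusted p = 0.00697). The call was kept under all 16 alternative settings, with log2 fold changes of 2.25 to 2.79. Sirpa resembles the Sirpb1 genes in sequence, so some fragments could be shared.

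Cd47, the ligand, did not follow its receptor. CD36+ NK was at 245.5, 293.1 and 311.9 CPM and CD36- NK at 289.4, 322.5 and 339.4 CPM. The groups overlapped, with a log2 fold change of -0.16 (SE 0.12, adjusted p = 0.459). Per length, in FPKM as deposited, the Sirpa to Cd47 ratio was 1.302, 1.533 and 1.979 in CD36+ NK and 0.1652, 0.3309 and 0.2515 in CD36- NK. Sirpa was thus above Cd47 in all 3 CD36+ NK libraries and below it in all 3 CD36- NK libraries. The log2 ratio averaged 0.66 ± 0.30 and -2.06 ± 0.50 (SD, n = 3 each), and the exact two-sided permutation test gave p = 0.1, the smallest that 3 against 3 allow.

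**Figure D3:**
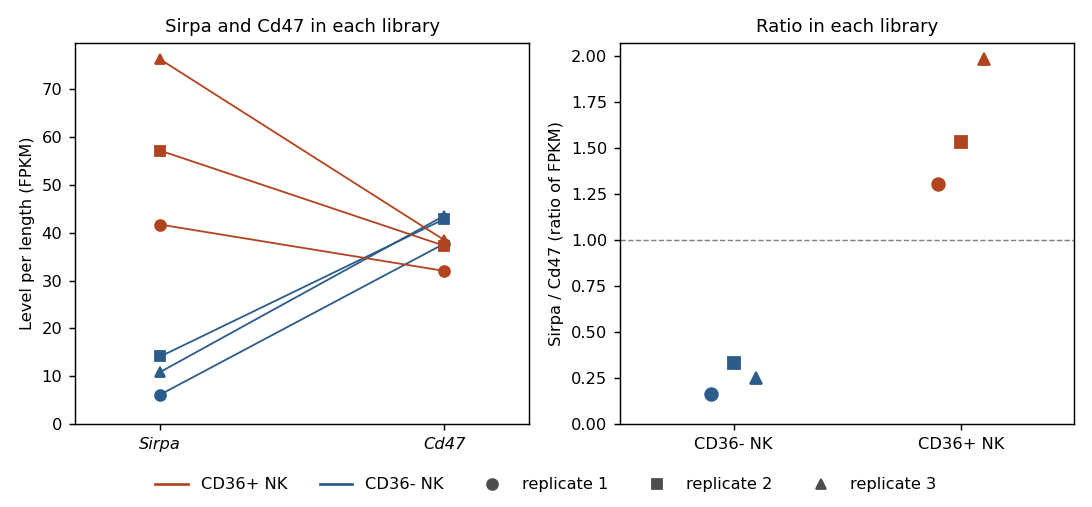
Left, Sirpa and Cd47 in FPKM (vertical axis) with a line for each library. Right, the ratio of Sirpa to Cd47 in each library, with the dashed line at a ratio of 1. CD36+ NK libraries sit at 1.302 to 1.979 and CD36- NK libraries at 0.1652 to 0.3309.

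Ordered by FPKM, which sets levels of different genes side by side per length, the members ranked differently in the 2 groups. In CD36+ NK the order was led by Sirpa (58.3 ± 17.3), Siglece (48.8 ± 19.1) and Cd47 (35.9 ± 3.42), and neighbours among these overlapped. Pirb (27.9 ± 1.598), Siglecg (22.6 ± 2.48) and Lilra5 (17.4 ± 7.38) followed, with Lilra5 overlapping Siglecg, and then Lilrb4a (7.14 ± 0.924) and Siglec1 (7.07 ± 2.70), which also overlapped. Cd33 (2.13 ± 1.56) and Siglecf (0.287 ± 0.290) were lowest.
In CD36- NK, Cd47 (41.3 ± 3.18) was alone at the top. Pirb (18.0 ± 6.64) and Siglecg (15.3 ± 1.20) came next and overlapped. Sirpa (10.4 ± 3.99), Siglece (9.81 ± 6.26) and Lilrb4a (5.96 ± 0.270) formed a run of overlapping neighbours. Below them Siglec1 (2.90 ± 1.74), Lilra5 (1.65 ± 1.35) and Cd33 (1.40 ± 0.590) overlapped in turn, and Siglecf (0.232 ± 0.0893) was last. All of these are mean FPKM ± SD of 3 libraries. Sirpa and Siglece made up 22.8% to 28.2% and 18.0% to 26.1% of the summed FPKM of the 10 genes in CD36+ NK, against 6.46% to 11.6% and 4.44% to 12.7% in CD36- NK.

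The library-to-library pattern of several members could be set beside the marker lists. In CD36+ NK, 5 of the 10 members (Siglec1, Siglece, Pirb, Sirpa and Cd47) were highest in replicate 3, as was the macrophage list. In CD36- NK, 8 of the 10, all but Cd33 and Cd47, were highest in replicate 2, as were the means of the macrophage, monocyte and eosinophil lists. In CD36+ NK, Lilra5, Siglecg and Lilrb4a were highest in replicate 2. Among the CD36+ NK libraries, the mean of the 8 monocyte genes was highest in replicate 1, and the called genes of that list went both ways, Ace higher (2.04, adjusted p = 0.0227) and Ccr2 lower (-1.35, adjusted p = 0.00649). On average the log2 CPM of the 11 tested macrophage genes was 2.92 higher in CD36+ NK. Measured relative to that list in each library, the log2 level of Sirpa differed between the groups by -0.37, that of Siglece by -0.43 and that of Lilra5 by 0.63, with overlapping groups in each case. Relative to the list, Siglec1 was lower in CD36+ NK by a log2 difference of -1.52, Pirb by -2.18, Siglecg by -2.32, Lilrb4a by -2.63 and Cd47 by -3.09, with no overlap. The groups overlapped for Siglecf (-2.93) and Cd33 (-2.42). The exact permutation test could not go below p = 0.1 for any of these. Because the list itself was 2.92 higher in CD36+ NK, any gene with a smaller log2 difference comes out lower on this measure. Cd47, at -0.16 by itself, is such a gene, so these lower values do not show a fall of the members. No share over all tested genes is given for the overlap on this measure.

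**Figure D4:**
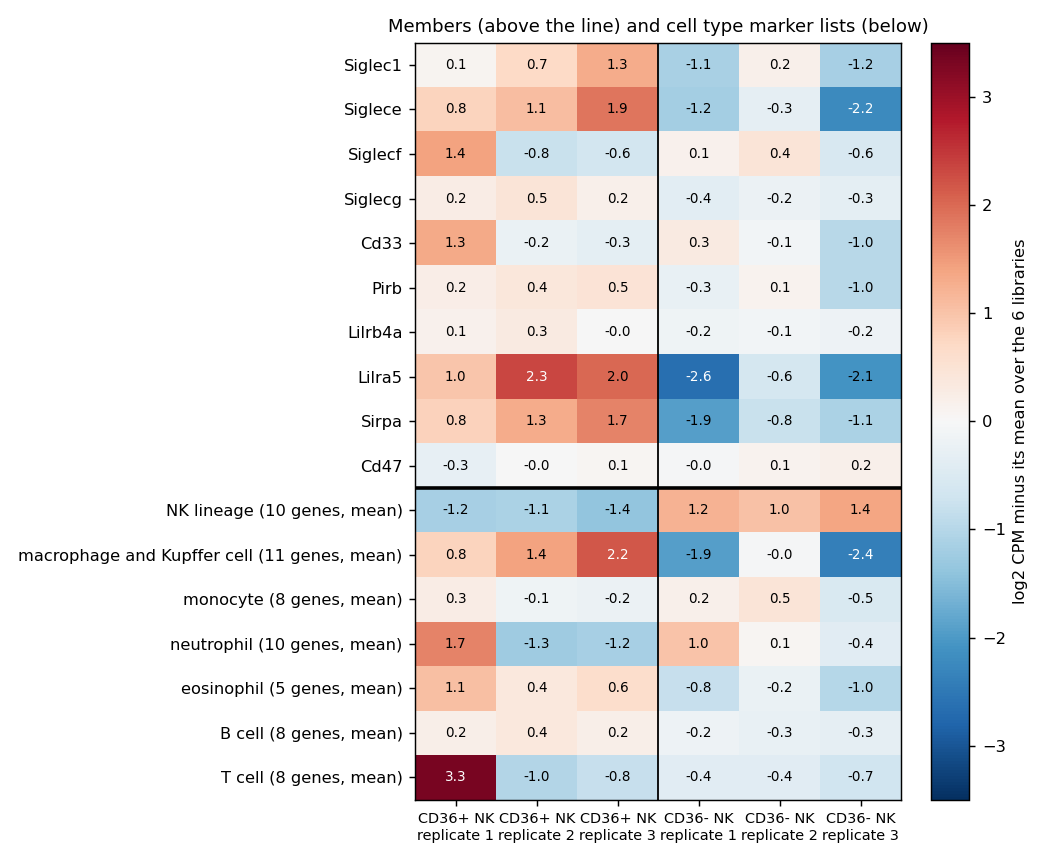
Log2 CPM minus its mean over the 6 libraries (colour scale and printed values) for the 10 genes, above the line, and for the mean of each marker list, below it. Columns are the libraries. Siglec1, Siglece, Siglecg, Pirb, Lilra5 and Sirpa are positive in all CD36+ NK libraries, as are the means of the macrophage, eosinophil and B cell lists, while Siglecf and Cd33 peak in CD36+ NK replicate 1 with the neutrophil, eosinophil and T cell lists.

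Among the members, Siglecg and Lilrb4a had the most similar profiles over the 6 libraries, with a root mean square difference of 0.16 in centred log2 CPM. The next most similar pairs were Lilrb4a and Cd47 (0.29), Siglecg and Pirb (0.31) and Siglecf and Cd33 (0.38). The called genes were farther from each other, from 0.59 for Siglece and Sirpa to 0.80 for Siglece and Lilra5. Over all tested genes, the profile nearest to Siglecg was that of Rhbdf1 (0.0243), the nearest to Pirb that of Il6ra (0.0436) and the nearest to Lilrb4a that of Btla (0.0252). The nearest to Cd47 was Armc8 (0.0240), to Siglece Gm15523 (0.0522), to Siglec1 Hap1 (0.134) and to Cd33 Ppp1r3d (0.157). Dnah12 was nearest to Lilra5 (0.172) and Slfn4 to Siglecf (0.247). These likenesses rest on 6 libraries and are a description.

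Other genes of the same systems were counted in 7 lists. Of 21 other paired and inhibitory myeloid receptors, 10 were significantly higher and 2 lower in CD36+ NK. These 12 calls fell to 4 without CD36+ NK replicate 2, to 4 without CD36+ NK replicate 3 and to 3 without CD36- NK replicate 1. The median over this list was 1.02 on the log2 scale. Cd300ld, an activating CD300 receptor, was at 106.5, 165.1 and 163.4 CPM against 17.45, 30.24 and 11.04 (2.89, SE 0.37, adjusted p = 0.00565). Trem1, which amplifies inflammatory signals in myeloid cells, had a log2 fold change of 2.07 (adjusted p = 0.00786). Lair1, an inhibitory collagen receptor, had one of 1.68 (adjusted p = 0.0118). The groups did not overlap for any of these 3. The called lower genes were Cd200r4 (-1.51, adjusted p = 0.00201) and Cd200r3 (-1.26, adjusted p = 0.0392), activating relatives of the CD200 receptor.

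Among the relatives of the members themselves, 1 gene was called. None of the 3 tested other Siglecs was called (median 0.24). The B cell Siglec Cd22, named because of its value, was at 563.6, 659.5 and 586.3 CPM against 456.3, 467.2 and 448.0, without overlap (0.40, SE 0.10, adjusted p = 0.0413). Mag, the myelin-associated Siglec, lay the other way, also without overlap, at 4.361, 6.033 and 9.395 CPM against 12.53, 11.76 and 17.09 (-1.06, SE 0.30, adjusted p = 0.0672). Of 4 tested PIR-A and LILR relatives none was called (median 0.20), and the largest value, in Pira2, was 1.55 (adjusted p = 0.0734). In the SIRP and CD47 axis 1 of 6 genes was called, Sirpb1a, an activating SIRP, at 1.42 (SE 0.34, adjusted p = 0.0435), and the median was 0.62. This call of Sirpb1a was lost under several alternatives, and the 2 other Sirpb1 genes were at 0.94 and 0.51.

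Downstream of the receptors, 14 adaptors, kinases and phosphatases had log2 fold changes with a median of 0.20. Dok2, an adaptor that dampens kinase signalling, was significantly lower, with 64.53, 54.15 and 45.31 CPM against 240.8, 179.3 and 236.6 (-2.002, SE 0.17, adjusted p = 0.00135). Ptpn6, which encodes SHP-1, was not called, at 613.3, 663.7 and 621.2 CPM against 479.9, 480.1 and 355.4 (0.53, SE 0.14, adjusted p = 0.0512), and it is named for its role rather than its value.

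On the ligand side little passed the thresholds. Of 22 tested genes that make, transfer or remove sialic acid, only St3gal5, which sialylates lactosylceramide, was called, at 37.03, 31.49 and 31.51 CPM against 19.3, 17.24 and 12.5 (1.02, SE 0.18, adjusted p = 0.0157). No gene of the list was called with scaling by library size only, or when replicate 1 or 2 of CD36+ NK, or replicate 3 of CD36- NK, was left out. The list median was 0.17. On the adjusted p alone 3 of the 22 passed, where 10.5% of all tested genes did. The 2 added, named because of their values, were lower: St3gal6 (-0.76, adjusted p = 0.0111) and St3gal4 (-0.38, adjusted p = 0.0390). None of the 6 ligand genes, led by H2-D1, H2-K1 and B2m, was called, and their median was 0.01, as over all tested genes. On the adjusted p alone 1 of the 6 passed, Cd24a (0.75, adjusted p = 0.0288), named because of its value.

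**Figure D5:**
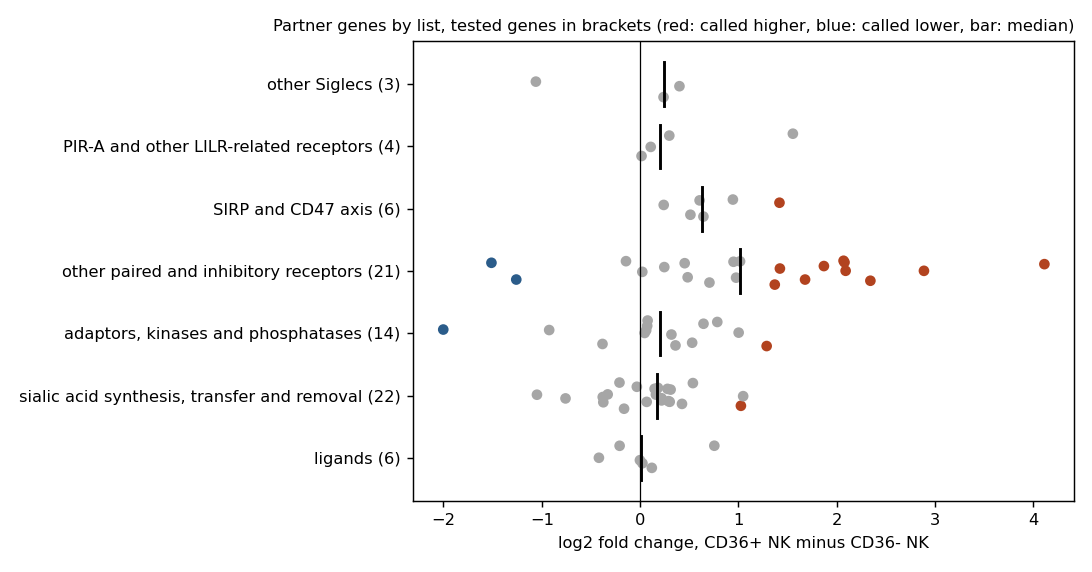
Log2 fold change of CD36+ NK over CD36- NK (horizontal axis) of each tested gene in the 7 lists, with the number tested in brackets, called genes in red (higher) or blue (lower), and the median as a bar. Of the 16 called genes, 12 belong to the other paired and inhibitory receptors, with 10 higher and 2 lower.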

How the data were processed

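Total RNA from CD36+ NK and CD36- NK cells was made into 6 libraries with the VAHTS Universal V6 kit. Per the study's methods, the authors filtered reads with Seqtk, mapped them with HISAT2 2.0.4 and counted fragments with StringTie. The deposited values are raw counts per gene and FPKM, which equalled counts divided by length and library total. The processing notes list a rat assembly although the rows are mouse Ensembl genes, and the strand setting is not given in the sources used here. A pair of broken lines (2) was rejoined. Columns with the authors' own comparisons were not used. Groups followed the sample titles.

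Counts were tested with edgeR 4.0.16 in R 4.3.3 (TMM, factors 0.958 to 1.03; filterByExpr, minimum count 10; quasi-likelihood test; Benjamini-Hochberg over 14761 genes). CPM are TMM-normalized, and centred log2 CPM used a prior count of 2. Differentially expressed genes (DEGs), here termed called or significant, passed both of the study's thresholds, an adjusted p below 0.05 and more than a 2-fold change. Standard errors were derived from the log2 fold change and its F statistic. On simulated data 195 of 200 genes changed by a log2 fold of 2 were recovered, with 3 others called. The simulation gave every gene the same biological coefficient of variation, so recovery of more variable genes was not measured. Replicates differed beyond sampling noise and all were kept. Members and lists were chosen with earlier results of these data known. Text names all members, the called genes of each list (at most 3 of lowest p in each direction), the 3 most abundant genes of marker lists, Cd36 and the nearest profile of each member; a few genes that this rule would name are not reported here. Alternatives were DESeq2 1.42.0, the exact test, other scalings and filters, blocks, thresholds and leaving out each library. The biological coefficient of variation of 20.3% and 3 libraries a group limit the precision.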

Additional observations from a re-analysis of the deposited data

How the results depend on the processing

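Over all genes, 880 DEGs became 560 with a replicate block by title number, 413 with a replicate block by the number in the library name, 1552 with no fold threshold and 330 at an adjusted p below 0.01, and leaving out 1 library gave 417 to 1160. A replicate block by form of library name then number went the other way, with 1061 DEGs. The exact test gave 1247, of which 723 were higher. Each of these 2 settings called 4 members. The share called higher rested more on single libraries, as 440 higher calls became 94 to 708 and 440 lower calls 288 to 554 with 1 library left out, and 105 and 308 with the block by the number in the library name. The count of called members, 3, became 1 with the replicate block by the number in the library name and 1 at an adjusted p below 0.01, and 1 to 4 with 1 library left out. Called genes in the 7 lists, 16, became 5 with the same block, 25 with no fold threshold and 4 at an adjusted p below 0.01, and 5 to 19 with 1 library left out. Siglece also lost its call under the block by title number (2.42, adjusted p = 0.0738) and, with Lilra5 (3.54, adjusted p = 0.0693), under the block by the number in the library name (2.49, adjusted p = 0.0662). The title numbers did not show pairing, with correlations of deviations from the group means of 0.31, 0.0515 and -0.0837 for replicates 1 to 3. Siglec1 was called in 4 of 16 alternatives, including DESeq2 (1.34, adjusted p = 0.00996). Without CD36+ NK replicate 1, Siglecf (-0.91) and Cd33 (-0.15) changed sign, and without CD36- NK replicate 3 the Sirpa level relative to the macrophage list did so (0.19). With 1 library left out, Siglecf ranged from -0.91 to 0.69, Cd33 from -0.15 to 0.93 and the relative Sirpa level from -0.83 to 0.19. The cause of these changes was not tested. The log2 ratio of Sirpa to Cd47 kept its direction in every alternative run. At 9 to 44 counts per library, depth limits Siglecf most.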
